A study of Mus musculus with 120 samples.

Results

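A set of 9 growth factor receptors that fibroblasts are known to carry, Pdgfra, Egfr, Igf1r, Igf2r, Fgfr1, Met, Axl, Tgfbr1 and Tgfbr2, were followed through endoplasmic reticulum (ER) stress in mouse embryonic fibroblasts. They were taken by gene symbol and are 9 of the 22417 genes in the deposited tables of ribosome footprints and mRNA. All 9 were found in both tables, all 9 carry the authors' flag for ER-targeted genes, a flag given to 8434 genes, and all 9 passed the filter on low footprint levels. The cells had 3 genotypes. WT cells have unmutated eIF2a, the libraries named eIF2a S51A (S51A below) come from cells whose eIF2a cannot be phosphorylated at the serine that stress kinases use, and the libraries labelled ATF4-/- come from a line named as a knockout of the transcription factor ATF4. Cells received thapsigargin, which blocks the calcium pump of the ER and so impairs folding there, at a dose of 1 µM. They were taken before it (0 h) and 0.5, 1, 2 and 4 h into treatment. All cells were grown in DMEM with 10% FBS. Digitonin followed by the detergent DDM split each culture into a cytosol and an ER fraction, and each fraction gave footprints, the mRNA pieces covered by translating ribosomes, and mRNA. The labels list 120 samples in 60 groups of 2, do not say whether replicates stem from different cultures, and name no clone number for the mutant lines. The p-values below therefore measure the spread between these libraries, which may be technical.

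A growth factor receptor starts as an mRNA whose first codons encode a signal peptide. The signal peptide docks the ribosome on the ER, and the receptor is threaded through the ER membrane while it is made, so its footprints belong in the ER fraction. Pdgfra, Egfr, Igf1r, Fgfr1, Met and Axl are tyrosine kinases, which add phosphate to their own tails when a ligand pairs them and then feed the RAS-MAPK and PI3K-AKT routes. Tgfbr1 and Tgfbr2 are serine/threonine kinases that act as 1 complex and phosphorylate SMAD proteins, and Igf2r has no kinase and carries IGF2 and lysosomal enzymes to endosomes. During ER stress the kinase PERK phosphorylates eIF2a, which lowers the start of translation of most mRNAs and favours the mRNA of ATF4.

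The first 60 coding bases are shown for 6 receptors whose footprint values carry the results below, since these bases encode the part that sends the ribosome to the ER. They were read from the GENCODE annotation of the GRCm38 genome, 5′ to 3′, with the start codon in capitals.
Pdgfra: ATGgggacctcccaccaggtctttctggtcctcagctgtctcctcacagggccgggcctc
Egfr: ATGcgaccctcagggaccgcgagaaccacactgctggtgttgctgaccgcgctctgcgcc
Met: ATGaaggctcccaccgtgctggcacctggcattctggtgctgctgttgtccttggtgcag
Axl: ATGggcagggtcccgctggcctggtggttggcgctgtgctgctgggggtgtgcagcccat
Tgfbr1: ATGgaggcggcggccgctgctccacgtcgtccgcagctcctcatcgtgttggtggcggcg
Tgfbr2: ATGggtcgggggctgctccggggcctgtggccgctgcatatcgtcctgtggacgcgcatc
Codons with T in the middle encode hydrophobic amino acids, which form the core of a signal peptide. Of the 25 codons after the start codon, 12 had T in the middle in Igf2r, 11 in Pdgfra, 10 in Met, 9 in Tgfbr2, 8 in Tgfbr1, 7 each in Egfr, Igf1r and Fgfr1, and 4 in Axl. Genes flagged as ER-targeted had a median of 9 such codons (quartiles 7 and 11, 7940 genes) and the other genes a median of 6 (quartiles 4 and 7, 12242 genes). Axl thus lay below the lower quartile of the flagged genes.

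The Egfr row stands for a short form of the receptor. Its coding region of 1968 bases shares its first 1926 bases with the longest annotated Egfr coding region of 3633 bases and is 54.2% as long. Its last 42 bases are its own, and they stand in capitals in the end of its coding region (bases 1897 to 1968) and in the same stretch of the longest form.
Egfr, short form: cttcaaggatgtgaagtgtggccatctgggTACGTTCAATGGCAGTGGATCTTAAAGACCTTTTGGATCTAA
Egfr, longest form: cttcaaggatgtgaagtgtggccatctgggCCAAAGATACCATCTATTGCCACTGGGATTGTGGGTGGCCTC
Footprints on the shared bases may come from either form and cannot be told apart, so an Egfr level here is a level per base of the extracellular part. For Axl the read numbers could be solved with a coding length of 2376 bases and not with the 2667 annotated bases, so Axl levels are per base of that shorter length.

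Levels are given in RPKM, reads per kilobase of coding sequence and per unit of depth as the authors scaled them. The deposited values pool the libraries, and levels of the single libraries were recovered from their digits. Of a group's libraries, a is the one where 1 read adds the smaller RPKM, and b is its partner. The depth of the footprint libraries was 330458 to 12108810 reads for WT, 7078624 to 16518542 reads for S51A and 2314887 to 9898135 reads for ATF4-/-. That of the WT mRNA libraries was 78690 to 179500 reads. Changes were tested with limma on log2(RPKM + 1), which understates changes at low levels, and a change was called at a Benjamini-Hochberg adjusted p below 0.05 over all 10970 genes tested. Where all libraries of a group are said to lie above or below those of another group, the share of all genes with the same order was not counted.

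Atf4 itself was checked first. The authors' pooled Atf4 footprints in WT were 132 RPKM at 0 h and reached 1030, 1220, 1560 and 1370 RPKM at the 4 treated times. In S51A they stayed between 44.6 and 65.7 RPKM. The libraries labelled ATF4-/- had 11.5 RPKM untreated and 166, 280, 342 and 362 RPKM after thapsigargin. Reads on Atf4 were thus fewer than in WT but not absent, and the labels do not say which part of the gene was deleted. Of 12 fibroblast markers 12 reached 1 RPKM in WT, 11 in S51A and 10 in the libraries labelled ATF4-/-, where Lum was listed at 0 at all times. The summed level of 6 epithelial markers was 3.59 to 10.7 RPKM in WT, 20.9 to 26 RPKM in S51A and 47.2 to 58.6 RPKM in the libraries labelled ATF4-/-, against 4480 RPKM or more for the fibroblast markers. Summed over their lists, endothelial markers stayed at or below 0.83 RPKM and immune markers at or below 2.94 RPKM. Neural markers reached 204 RPKM, with 4 of 5 genes reaching 1 RPKM in WT, 3 in S51A and 4 in the libraries labelled ATF4-/-. Muscle markers lay at 235 to 867 RPKM in WT, 1530 to 2190 RPKM in S51A and 826 to 1320 RPKM in the libraries labelled ATF4-/-. In each genotype 2 of the 5 muscle genes reached 1 RPKM. Des, Myod1 and Myog were listed at 0 at all times in WT, Myog in S51A and Myod1 in the libraries labelled ATF4-/-. The part of these markers in the genotype differences below was not tested.

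Some libraries stand apart. The S51A ER libraries fell into the same 2 sets at all 5 times (libraries a at 0 and 0.5 h with libraries b at 1, 2 and 4 h form set 1, the others set 2), as judged from 8243 genes without the receptors. The 2 libraries of a group also differed in a common way over time in both fractions of the cells labelled ATF4-/-. In WT 3 libraries held fewer than 500000 reads, namely library b of the ER at 1 h and of the cytosol at 0.5 and 1 h. The authors' scaling adds a shift shared by all genotypes, since the ER share of their fraction weights was 45.8% untreated, 33.8% to 33.9% at 0.5 h and 43.1% to 47.8% at 4 h. With it the median gene changed by -0.23 (log2) at 0.5 h in the WT ER, and by -0.03 after rescaling by trimmed means of log ratios.

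In untreated WT cells Axl was the most translated of the receptors per base of coding sequence. Axl, a receptor for the vitamin K-dependent ligand GAS6, lies on chromosome 7 (bases 25757273 to 25788687, minus strand, 20 exons) and had ER levels of 212 and 143 RPKM in libraries a and b. Tgfbr2, the ligand-binding chain of the TGF-β receptor (chromosome 9, 116088929 to 116175360, minus strand, 7 exons), had 47.4 and 44.8 RPKM. Igf2r (chromosome 17, 12682406 to 12769664, minus strand, 48 exons) had 28 and 27.3 RPKM. These 3 receptors did not overlap one another in their libraries. Pdgfra, the receptor for PDGF-A and other PDGF chains that marks many mesenchymal cells (chromosome 5, 75155899 to 75198201, plus strand, 23 exons), had 16.7 and 28.9 RPKM. Fgfr1, a fibroblast growth factor receptor (chromosome 8, 25518789 to 25574779, plus strand, 17 exons), had 18.1 and 18.3 RPKM. The libraries of Pdgfra overlapped those of Igf2r above it and of Fgfr1 below it, so their order is open within this spread.

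The lower ranks in untreated WT were held by Igf1r, Egfr, Met and Tgfbr1. Igf1r, the receptor that carries the growth signal of IGF1 and IGF2 (chromosome 7, 67952827 to 68233668, plus strand, 21 exons), had 16.4 and 14.3 RPKM. Egfr, the receptor for EGF, TGF-α, epiregulin and related ligands (chromosome 11, 16752203 to 16887923, plus strand, 16 exons), had 12.4 and 15.1 RPKM and overlapped Igf1r. Met, the receptor for hepatocyte growth factor (chromosome 6, 17463800 to 17573980, plus strand, 22 exons), had 7.88 and 6.7 RPKM, and Tgfbr1, the chain that Tgfbr2 activates (chromosome 4, 47353222 to 47414931, plus strand, 9 exons), had 7.01 and 6.53 RPKM. Met and Tgfbr1 overlapped each other and lay below all other receptors.

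The order differed between the genotypes. In untreated S51A cells the mean ER levels were 59.3 RPKM for Axl, 42.7 for Egfr, 38.5 for Tgfbr2, 34.2 for Igf2r and 24 for Fgfr1, and each of these overlapped its neighbour. A second block followed with Igf1r at 10.7 RPKM, Pdgfra at 9.23, Tgfbr1 at 5.45 and Met at 5.14, again overlapping from neighbour to neighbour. In the untreated cells labelled ATF4-/- Axl stood at 117 RPKM and Tgfbr2 at 10.5 RPKM, apart from each other and from the rest. Met, with 9.01 RPKM, overlapped Fgfr1 with 8.31 RPKM, and Igf2r, Igf1r, Tgfbr1 and Egfr overlapped in turn between 5.24 and 3.36 RPKM. Pdgfra was last there with 0.722 and 0.84 RPKM. Axl had the highest mean ER level in all 3 untreated genotypes.

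**Figure D1:**
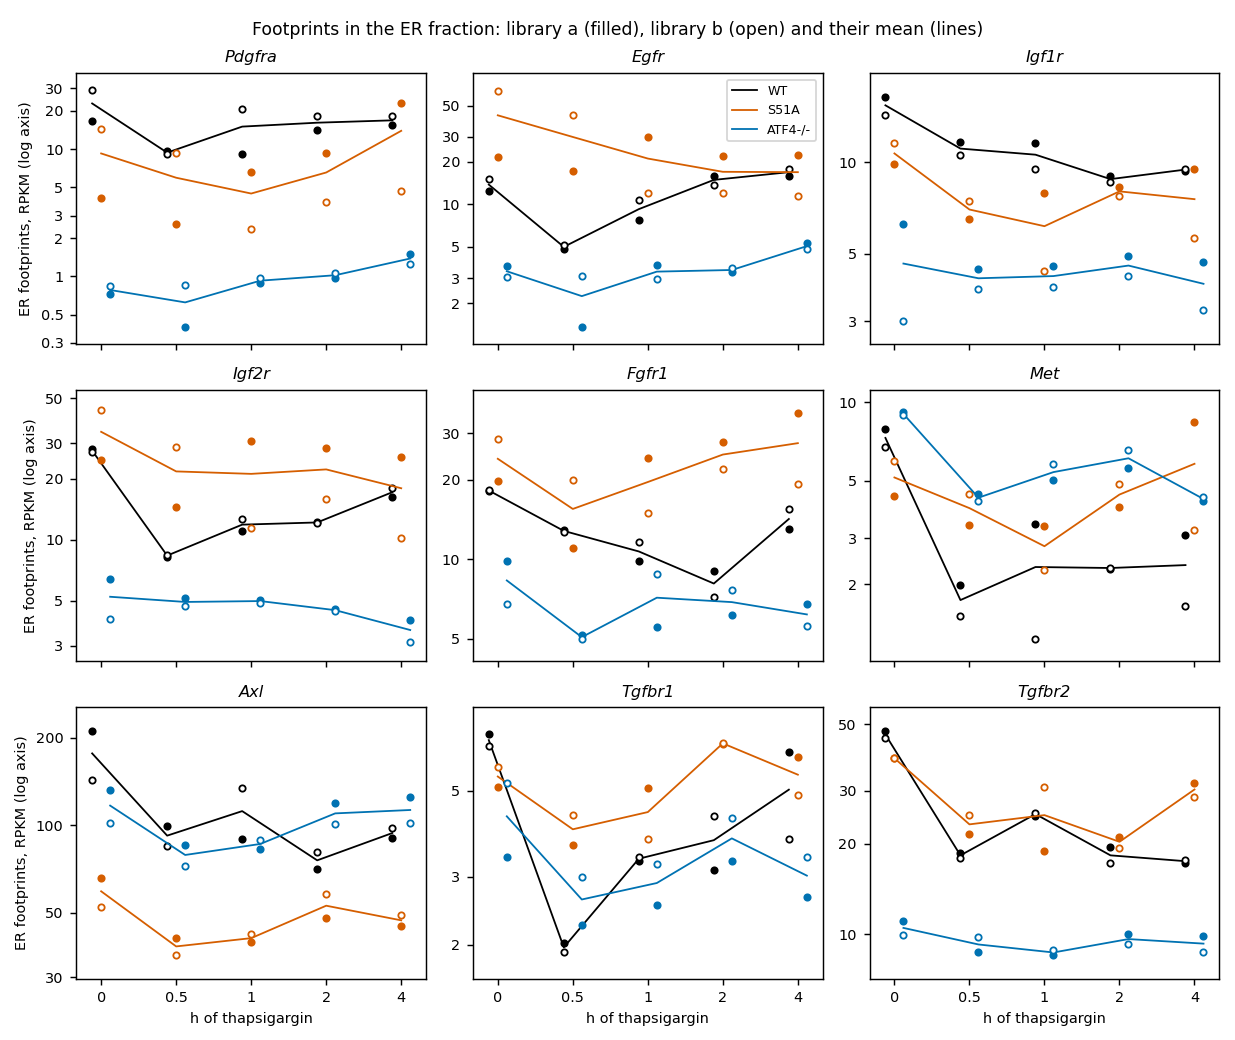
Ribosome footprints of the 9 receptors in the ER fraction in RPKM (log axis) against hours of thapsigargin. Filled points are library a, open points library b, and lines join the mean of both libraries for WT (black), S51A (orange) and the libraries labelled ATF4-/- (blue). The WT line of Tgfbr2 drops from a mean of 46.1 RPKM and lies at 17.7 RPKM or below in both libraries at 4 h, and the libraries labelled ATF4-/- lie lowest for Pdgfra, Igf2r and Tgfbr2 at all times.

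Receptor translation before any stress was compared with WT to see what the mutant lines start from. In the libraries labelled ATF4-/- 6 of the 9 receptors were called, all lower than in WT, where 24.9% of all genes were called in either direction. Pdgfra fell by 3.69 on the log2 scale (SE 0.64, adjusted p = 3.8e-05), from 16.7 and 28.9 RPKM to 0.722 and 0.84 RPKM. Igf2r was lower by a log2 value of -2.22 (SE 0.55, adjusted p = 0.00239), with 6.44 and 4.05 RPKM. Tgfbr2 was lower by -2.04 (SE 0.30, adjusted p = 3.55e-06), with 11.1 and 9.91 RPKM. The calls of these 3 receptors remained under every alternative and every left-out library. Egfr (log2 -1.76, adjusted p = 0.00646), Igf1r (-1.59, adjusted p = 0.0108) and Fgfr1 (-1.06, adjusted p = 0.0256) were also lower, and each of these calls was lost without library b of the untreated ER labelled ATF4-/- (adjusted p = 0.0591, 0.184 and 0.226). Without WT library a those of Igf1r (0.0645) and Fgfr1 (0.0828) were lost, and without WT library b those of Egfr (0.0695) and Fgfr1 (0.119). Met stood at 9.13 and 8.89 RPKM against 7.88 and 6.7 RPKM in WT (log2 0.28, adjusted p = 0.605), and Axl (log2 -0.58) and Tgfbr1 (log2 -0.57) were not called either. The median over the 9 receptors was -1.59, against -0.21 over all genes. In bulk samples like these, fewer cells that carry a receptor and fewer footprints per cell cannot be told apart. Whether receptor mRNA differed between these genotypes was not tested.

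Untreated S51A cells differed from WT in fewer receptors. Egfr was higher, with 21.8 and 63.6 RPKM against 12.4 and 15.1 RPKM in WT (log2 1.38, SE 0.48, adjusted p = 0.0398). Axl was lower, with 66.1 and 52.5 RPKM against 212 and 143 RPKM (log2 -1.55, SE 0.52, adjusted p = 0.0317). These were the 2 receptors called among 9 by limma, beside 19.4% of all genes called in either direction. The split of all called genes was 799 higher and 1332 lower under the authors' scaling and 1250 higher and 1032 lower after rescaling, and Axl was then not called (adjusted p = 0.0564). Egfr was not called without library b of the untreated S51A ER (log2 0.63, adjusted p = 0.519) nor without WT library a (0.179) or b (0.098). Axl was not called without any of the 4 libraries (adjusted p 0.0569 to 0.207). Pdgfra, with 4.1 and 14.4 RPKM, had a log2 difference of -1.38 (adjusted p = 0.134), which was called by limma voom (adjusted p = 0.0454), without the shallow libraries (0.0421) and without library b of the untreated S51A ER (0.0482).

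Untreated cells translated the receptors on the ER. In WT the 9 receptors were all higher in the ER than in the cytosol, by log2 values of 2.96 (Tgfbr1) to 5.37 (Axl), with adjusted p between 4.25e-12 (Tgfbr2) and 1.17e-06 (Pdgfra). Of all genes 47.6% were called in either direction in that comparison. Axl had 2.27 and 4.44 RPKM in the WT cytosol, and Tgfbr2 had 2.62 and 1.68 RPKM. Egfr, Met and Tgfbr1 were listed at 0 in both WT cytosol libraries. Set against a floor of 3 reads per library, their ER levels were at least 44.5-fold, 49.5-fold and 16.8-fold higher. In S51A all 9 were likewise higher in the ER (log2 2.17 for Met to 3.79 for Egfr, background 47.4%). In the libraries labelled ATF4-/- limma called 8 of 9 (background 24.4%), from 1.97 (Egfr) to 4.31 (Axl). The exception was Pdgfra, which was listed at 0 in both cytosol libraries there and so was at least 13.5-fold higher in the ER, while its log2 difference of 0.83 had an adjusted p of 0.429. It was called by limma voom (adjusted p = 0.0177), with a pseudocount of 0.1 (0.0189) and in the fit of the compared genotypes only (5.1e-05). The split of all genes in this comparison depends on scaling, with 2175 higher and 3048 lower in the WT ER under the authors' scaling but 2530 and 266 after rescaling, 1904 and 3300 against 2316 and 330 in S51A, and 1805 and 872 against 2021 and 282 in the libraries labelled ATF4-/-. Over the 3 genotypes 26 of 27 receptor differences were called under both scalings.

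Thapsigargin lowered the ER footprints of several receptors in WT cells within 0.5 h. At 0.5 h 5 of the 9 receptors were called, all lower, beside 25.4% of all genes called in either direction. Their median log2 change was -1.28, against -0.23 for all genes tested. At 1, 2 and 4 h 3, 3 and 2 receptors were called, all lower, beside 19.5%, 12.3% and 9.24% of all genes. Median log2 changes over the receptors were -0.72, -1.09 and -0.64 at these times, against -0.23, -0.04 and 0.09 over all genes. All genes called in WT split into 738 higher and 2047 lower at 0.5 h, 588 and 1549 at 1 h, 809 and 540 at 2 h and 738 and 276 at 4 h. After rescaling these splits were 1393 and 1376, 909 and 1448, 752 and 942, and 415 and 516. Rescaling left 4, 1, 4 and 2 receptors called, all of them lower.

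The TGF-β receptor chains were among them. Tgfbr2 had ER levels of 47.4 and 44.8 RPKM untreated, 18.7 and 18 RPKM at 0.5 h, 24.7 and 25.4 RPKM at 1 h, 19.5 and 17.2 RPKM at 2 h and 17.3 and 17.7 RPKM at 4 h in WT. Every treated library lay below both untreated libraries, and the libraries within a time were close to each other. Tgfbr2 fell by 1.28 (log2, SE 0.30) at 0.5 h, 0.85 at 1 h, 1.29 at 2 h and 1.35 at 4 h, with adjusted p = 0.00211, 0.0425, 0.00406 and 0.00347. The calls at 0.5 and 4 h remained under every alternative and every left-out library. The call at 2 h was lost without library b of that time (adjusted p = 0.0538). The call at 1 h was lost under 6 of 9 alternatives (adjusted p up to 0.183), and without any of the 4 libraries compared. Tgfbr1 had 7.01 and 6.53 RPKM untreated, 2.02 and 1.92 RPKM at 0.5 h, 3.3 and 3.37 RPKM at 1 h, 3.13 and 4.32 RPKM at 2 h and 6.32 and 3.76 RPKM at 4 h. It was lower by a log2 value of -1.39 at 0.5 h (SE 0.31, adjusted p = 0.00117) and -0.84 at 1 h (adjusted p = 0.0494), and at 4 h library a came close to the untreated libraries (log2 -0.40, adjusted p = 0.477). The Tgfbr1 call at 1 h was lost without any of the 4 libraries (adjusted p 0.105 to 0.167). At 2 h its log2 change of -0.73 was not called (adjusted p = 0.118), but it was after rescaling (adjusted p = 0.0449) and with a pseudocount of 5 (adjusted p = 0.00996). Whether the 2 chains differed in their change was not tested.

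Met fell at all 4 times in WT. Its ER levels were 7.88 and 6.7 RPKM untreated, 1.98 and 1.51 RPKM at 0.5 h, 3.42 and 1.23 RPKM at 1 h, 2.29 and 2.32 RPKM at 2 h and 3.1 and 1.65 RPKM at 4 h. No treated library reached the lower untreated one. The log2 changes were -1.60 (SE 0.34, adjusted p = 0.000719), -1.40 (adjusted p = 0.00365), -1.32 (adjusted p = 0.00812) and -1.33 (adjusted p = 0.00956). The calls at 1, 2 and 4 h were lost by limma voom (adjusted p = 0.103, 0.0604 and 0.0506). They were also lost in the fit of the compared genotypes only (adjusted p = 0.0524, 0.079 and 0.0913). Library b held as few as 6 Met reads at 1 h and 12 at 4 h, and the Met calls at 1 and 4 h were lost without these libraries (adjusted p = 0.149 and 0.206), that at 4 h also without library a of 0 h (0.0935). The call at 2 h was lost without library a of 0 h (adjusted p = 0.0813) and without either library of 2 h, and with a pseudocount of 0.1 no Met call remained.

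Egfr and Igf2r fell at 0.5 h. Egfr had 12.4 and 15.1 RPKM untreated, 4.81 and 5.19 RPKM at 0.5 h, 7.7 and 10.8 RPKM at 1 h, 15.9 and 13.8 RPKM at 2 h and 15.8 and 17.9 RPKM at 4 h. The 0.5 h libraries lay below all other WT libraries (log2 -1.29, SE 0.48, adjusted p = 0.0464), and both 4 h libraries lay above the untreated ones (log2 0.28, adjusted p = 0.802). Igf2r had 28 and 27.3 RPKM untreated, 8.28 and 8.47 RPKM at 0.5 h, 11.1 and 12.7 RPKM at 1 h, 12.3 and 12.1 RPKM at 2 h and 16.3 and 18.1 RPKM at 4 h. Its lowest libraries were those of 0.5 h (log2 -1.61, SE 0.55, adjusted p = 0.0287), and all treated libraries stayed below the untreated ones. Its change at 1 h (-1.15, adjusted p = 0.135), 2 h (-1.11) and 4 h (-0.65) was not called. Both 0.5 h calls were lost without any of the 4 libraries compared (Egfr adjusted p 0.0891 to 0.231, Igf2r 0.0936 to 0.127).

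Fgfr1, Axl, Pdgfra and Igf1r moved less or with more spread. Fgfr1 had 18.1 and 18.3 RPKM untreated, 12.9 and 12.7 RPKM at 0.5 h, 9.87 and 11.6 RPKM at 1 h, 9.01 and 7.18 RPKM at 2 h and 13 and 15.5 RPKM at 4 h. Its lowest libraries were at 2 h, the time at which it was called (log2 -1.09, SE 0.36, adjusted p = 0.0408), a call lost without any of the 4 libraries (adjusted p 0.0932 to 0.232). Axl had 212 and 143 RPKM untreated, 99.4 and 85.1 RPKM at 0.5 h, 89.7 and 134 RPKM at 1 h, 70.9 and 80.7 RPKM at 2 h and 90.3 and 97.8 RPKM at 4 h. All treated Axl libraries lay below both untreated ones, but the untreated libraries themselves differed and no time was called (log2 -0.66 to -1.19, adjusted p 0.133 to 0.397). Pdgfra had 16.7 and 28.9 RPKM untreated, 9.64 and 9.09 RPKM at 0.5 h, 9.15 and 20.8 RPKM at 1 h, 14.1 and 18.1 RPKM at 2 h and 15.4 and 18.2 RPKM at 4 h. Its libraries overlapped the untreated ones from 1 h on (log2 -1.15 at 0.5 h, adjusted p = 0.187). Igf1r had 16.4 and 14.3 RPKM untreated, 11.7 and 10.6 RPKM at 0.5 h, 11.6 and 9.51 RPKM at 1 h, 9.0 and 8.61 RPKM at 2 h and 9.4 and 9.54 RPKM at 4 h. The log2 changes of Igf1r, -0.43 to -0.74, were not called.

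**Figure D2:**
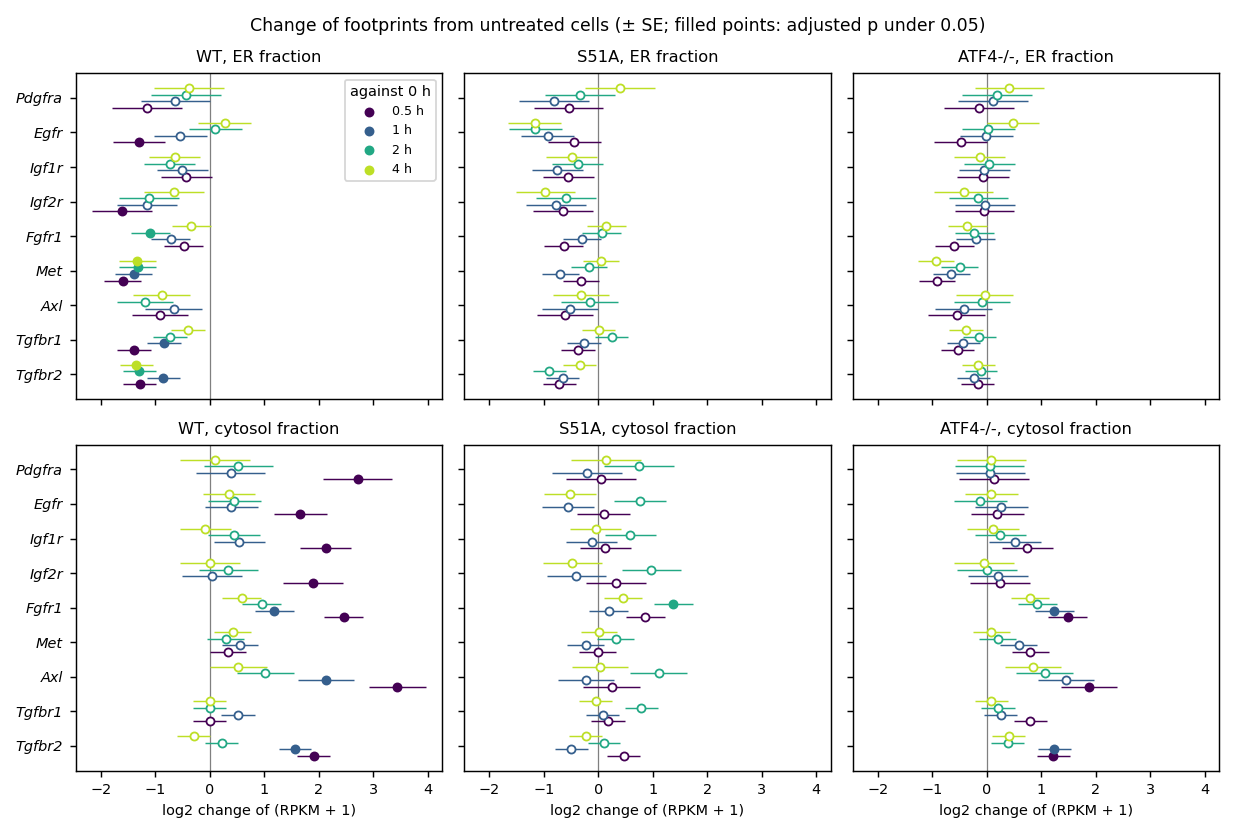
Log2 change of footprints (RPKM + 1) from untreated cells, with its standard error, for each receptor, time, genotype and fraction (upper panels ER, lower panels cytosol). Filled points are changes with an adjusted p below 0.05 by limma under the main settings. Filled ER points occur in the WT panel alone, and the largest is Igf2r at 0.5 h (-1.61), while in the WT cytosol Axl reaches 3.44 at 0.5 h.

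In S51A cells none of the 9 receptors was called in the ER at any time by limma. The shares of all genes called were 0%, 0.1%, 1.39% and 2.22% at 0.5, 1, 2 and 4 h, and 1, 2, 2 and 1 receptors had an unadjusted p below 0.05. With limma voom 1 receptor was called, Tgfbr2 at 2 h (adjusted p = 0.0275). Called genes of all kinds split into 3 higher and 8 lower at 1 h, 65 and 88 at 2 h and 151 and 92 at 4 h, and after rescaling into 9 and 6, 126 and 78, and 126 and 178. Tgfbr2 had 38.5 and 38.6 RPKM untreated, 21.5 and 24.9 RPKM at 0.5 h, 18.9 and 31 RPKM at 1 h, 21.1 and 19.4 RPKM at 2 h and 31.9 and 28.6 RPKM at 4 h. All treated S51A libraries of Tgfbr2 lay below the untreated ones, with log2 changes of -0.71, -0.65, -0.90 (adjusted p = 0.165) and -0.34. Met had 4.35 and 5.93 RPKM untreated, 3.38 and 4.46 RPKM at 0.5 h, 3.35 and 2.26 RPKM at 1 h, 3.97 and 4.86 RPKM at 2 h and 8.38 and 3.22 RPKM at 4 h, and its libraries overlapped the untreated ones at 0.5, 2 and 4 h. Tgfbr1 had 5.12 and 5.78 RPKM untreated, 3.63 and 4.33 RPKM at 0.5 h, 5.08 and 3.75 RPKM at 1 h, 6.62 and 6.67 RPKM at 2 h and 6.14 and 4.88 RPKM at 4 h. Axl ranged from 52.5 to 66.1 RPKM untreated and from 35.7 to 57.9 RPKM after thapsigargin, with log2 changes of -0.16 to -0.61, and its libraries overlapped the untreated ones at 2 h.

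The 2 sets of S51A libraries differed for many of the receptors. Pdgfra was higher in set 2 than in set 1 by 2.42-fold to 4.96-fold over the 5 times, Egfr by 1.82-fold to 2.92-fold, Igf2r by 1.76-fold to 2.71-fold, Fgfr1 by 1.26-fold to 1.87-fold and Igf1r by 1.07-fold to 1.8-fold. Met ranged from 0.817-fold to 2.6-fold, with the highest ratio at 4 h. Of 8252 genes 28, or 0.339%, differed by more than 2-fold between the sets at all times, as Pdgfra did. Within set 1 Pdgfra had 4.1, 2.56, 2.37, 3.82 and 4.66 RPKM from 0 to 4 h, and within set 2 it had 14.4, 9.34, 6.57, 9.26 and 23.1 RPKM. Egfr had 21.8, 17.3, 12.1, 12 and 11.5 RPKM in set 1 and 63.6, 42.7, 30.1, 21.9 and 22.4 RPKM in set 2. Egfr, Igf1r, Igf2r, Axl and Tgfbr2 were lower than untreated at all 4 later times within both sets. Under the authors' scaling the median gene of the S51A ER changed by -0.29, -0.19, -0.08 and 0.10 (log2) at 0.5, 1, 2 and 4 h. After rescaling it changed by -0.01, -0.02, 0.03 and 0.01. The share of all genes that were lower in this way was not counted. The log2 changes of Egfr, -0.44, -0.93, -1.15 (adjusted p = 0.334) and -1.17 (adjusted p = 0.249), were not called with the libraries taken as replicates. With the set as a block in the fit, an alternative chosen after seeing the data, no S51A receptor was called either. Axl was 0.794-fold to 0.941-fold in set 2, Tgfbr1 0.993-fold to 1.35-fold, and Tgfbr2 1-fold to 1.16-fold except at 1 h, when it was 0.61-fold. What the sets stand for is not given in the labels.

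**Figure D3:**
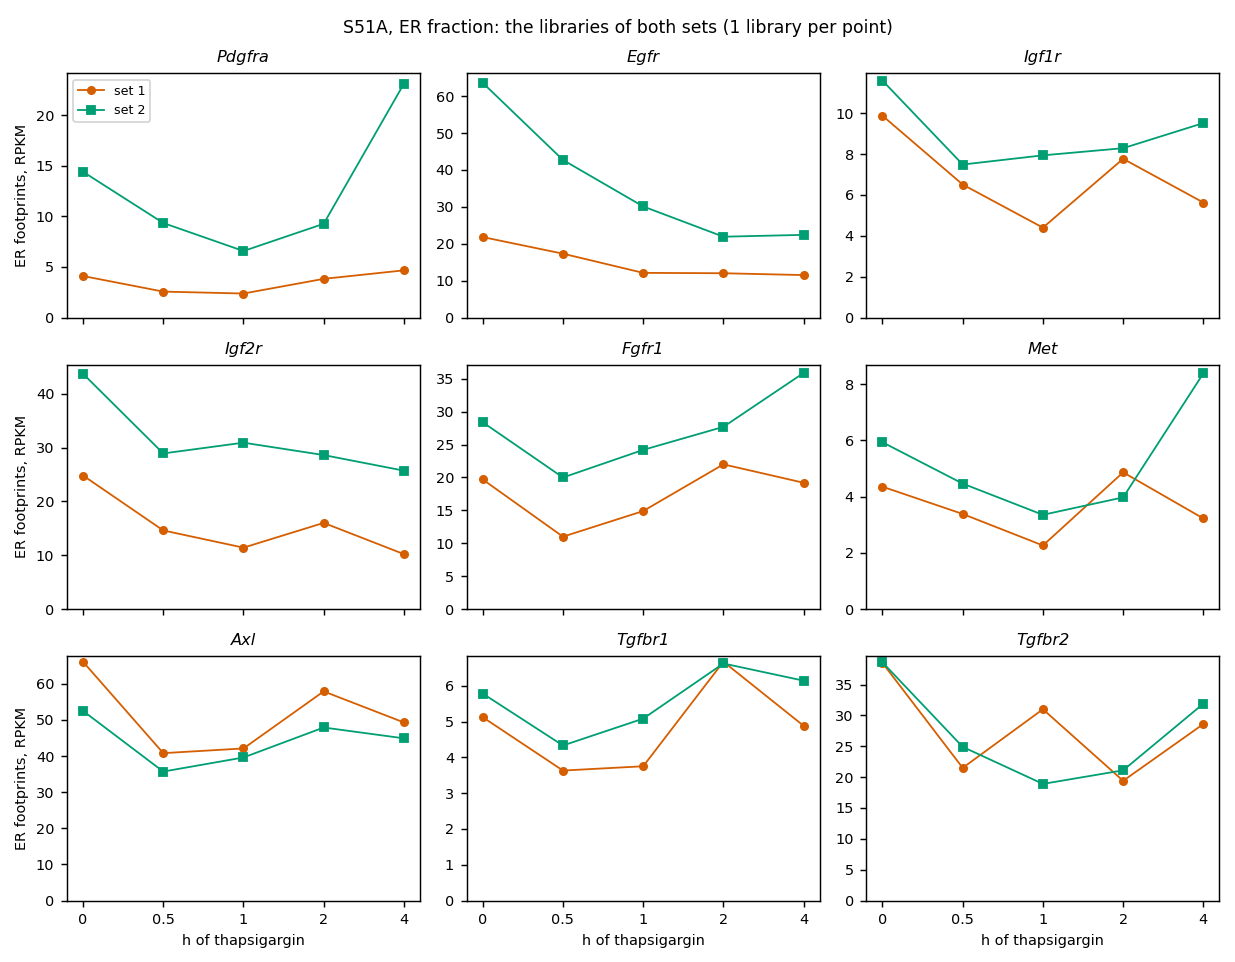
ER footprints of the 9 receptors in S51A cells in RPKM against hours of thapsigargin, 1 point per library, joined within set 1 (circles) and set 2 (squares). Set 2 lies above set 1 at all times for Pdgfra (by up to 4.96-fold), Egfr, Igf2r, Fgfr1 and Igf1r, while the lines of Met, Tgfbr1 and Tgfbr2 cross and set 1 is the higher for Axl.

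In the libraries labelled ATF4-/- none of the 9 receptors was called in the ER by limma, while 14%, 5.89%, 2.79% and 5.15% of all genes were called at 0.5, 1, 2 and 4 h. Unadjusted p fell below 0.05 for 1 receptor at 0.5 h and 1 at 4 h, which was Met both times. Met had 9.13 and 8.89 RPKM untreated, 4.44 and 4.17 RPKM at 0.5 h, 5.01 and 5.77 RPKM at 1 h, 5.6 and 6.57 RPKM at 2 h and 4.16 and 4.34 RPKM at 4 h. All treated Met libraries lay below both untreated ones, with log2 changes of -0.92 (SE 0.34, adjusted p = 0.0628), -0.65, -0.50 and -0.93 (adjusted p = 0.111). Limma voom called Met at 0.5 h (adjusted p = 0.0248) and at 4 h (adjusted p = 0.0245), and the fit with the library set as a block called it at 0.5 h (adjusted p = 0.0446). Limma also called Met at 0.5 and 4 h without the shallow libraries (adjusted p = 0.0162 and 0.0264) and with a pseudocount of 5 (0.0051 and 0.00764). The fit of the compared genotypes only called it too (0.009 and 0.0131), and Pdgfra as higher at 4 h (log2 0.41, adjusted p = 0.036). Whether Met was called in this ER thus depended on the settings. Tgfbr2 had 11.1 and 9.91 RPKM untreated and 8.54 to 10.0 RPKM in the treated libraries, with log2 changes of -0.11 to -0.24. Pdgfra had 0.398 to 1.49 RPKM in the treated libraries, levels at which the pseudocount of 1 leaves little room for a change. Axl had 132 and 102 RPKM untreated, 85.9 and 72.3 RPKM at 0.5 h and 125 and 102 RPKM at 4 h. The split of all called genes was 51 higher and 1484 lower at 0.5 h and 141 and 505 at 1 h under the authors' scaling, and 187 and 156, then 239 and 147, after rescaling. At 4 h it was 362 and 203, and 374 and 317 after rescaling.

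Whether the genotypes differed in their response was tested directly, as the difference of the ER change from that of WT at 1 and 4 h. None of the 36 receptor tests was called by limma or by limma voom. The shares of all genes called were 2.44% and 2.2% for S51A at 1 and 4 h and 0.109% and 0.155% for the libraries labelled ATF4-/-. The S51A genes called split into 100 higher and 168 lower at 1 h and 78 and 163 at 4 h, and after rescaling into 266 and 215 and 141 and 159. For ATF4-/- the splits were 6 and 6 and 1 and 16, and after rescaling 36 and 8 and 4 and 12. At an unadjusted p below 0.05 there were 3 receptors for S51A at 4 h, 1 for ATF4-/- at 4 h, and 0 at 1 h in both. Met changed by 1.37 more in S51A than in WT at 4 h (SE 0.47, unadjusted p = 0.0065, adjusted p = 0.129). For Tgfbr2 the difference was 1.01 in S51A (SE 0.43, adjusted p = 0.263) and 1.19 in the libraries labelled ATF4-/- (SE 0.43, adjusted p = 0.288). Egfr went the other way in S51A, by -1.45 (SE 0.68, adjusted p = 0.346). The Met difference was called without the shallow libraries (adjusted p = 0.0293), with a pseudocount of 5 (adjusted p = 0.0178) and without library b of the S51A ER at 4 h (adjusted p = 0.0258). The called WT changes at 1 and 4 h are therefore not shown to differ from those of the mutant cells. For those at 0.5 and 2 h this difference was not tested.

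In the cytosol fraction of WT cells the footprints of several receptors rose. By limma 7 of the 9 receptors were called at 0.5 h, all higher, beside 29.4% of all genes called in either direction, and 3 were called at 1 h, all higher, beside 21.8%. At 0.5 h Tgfbr2, Igf2r and Egfr were called both higher in the cytosol and lower in the ER. The median log2 change of the receptors at 0.5 h was 1.91, against 0.04 for all genes. At 1 h it was 0.54, or 0.39 with receptors listed at 0 set to the 3-read floor. Axl had 2.27 and 4.44 RPKM in the WT cytosol untreated, 21.4 and 93.0 RPKM at 0.5 h, 19.7 and 15.7 RPKM at 1 h, 8.22 and 6.98 RPKM at 2 h and 4.54 and 5.66 RPKM at 4 h. The 0.5 and 1 h libraries lay far above the untreated ones (log2 3.44, SE 0.52, adjusted p = 4.74e-06, and log2 2.14, adjusted p = 0.00273). At 0.5 h the value of 93.0 RPKM came from the shallow library b, so the size of that rise depends on it in part. Without library a of the untreated cytosol the Axl call at 1 h was lost (adjusted p = 0.0617). Fgfr1 had 0.931 and 0.899 RPKM untreated, 7.9 and 11.5 RPKM at 0.5 h, 4.42 and 2.51 RPKM at 1 h, 3.78 and 1.88 RPKM at 2 h and 2.06 and 1.69 RPKM at 4 h. Its treated cytosol libraries all lay above the untreated ones, with called changes of 2.46 at 0.5 h (SE 0.36, adjusted p = 2.41e-06) and 1.19 at 1 h (adjusted p = 0.0145), of which the second was lost without either untreated library or library a of 1 h (adjusted p 0.07 to 0.142). Tgfbr2 had 2.62 and 1.68 RPKM untreated, 9.02 and 12.6 RPKM at 0.5 h, 7.6 and 8.9 RPKM at 1 h, 2.53 and 2.74 RPKM at 2 h and 1.53 and 1.56 RPKM at 4 h. It rose by 1.91 (SE 0.30, adjusted p = 9.3e-06) and 1.57 (adjusted p = 0.000243) at 0.5 and 1 h, and both calls remained under every alternative and left-out library.

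For Pdgfra, Igf1r, Igf2r and Egfr the WT cytosol calls at 0.5 h depended on 1 shallow library. Pdgfra had 0 and 0.471 RPKM untreated and 1.98 and 20.3 RPKM at 0.5 h (log2 2.72, SE 0.64, adjusted p = 0.00135). Igf1r had 0.363 and 0.321 RPKM and then 1.77 and 11.4 RPKM (log2 2.13, adjusted p = 0.000687). Igf2r had 0.275 and 0.354 RPKM and then 0.868 and 11.8 RPKM (log2 1.90, adjusted p = 0.00796). In each case library b, which held 330458 reads in all, was far above library a. Egfr, listed at 0 in both untreated libraries, had 1.03 and 3.98 RPKM from 5 and 4 reads (adjusted p = 0.0085). Against the 3-read floor their mean was at least 8.08-fold higher, and library a alone at least 3.32-fold. Without the shallow libraries these 4 calls were lost, with adjusted p of 0.195 for Pdgfra, 0.0666 for Igf1r, 0.677 for Igf2r and 0.276 for Egfr, and those of Axl, Fgfr1 and Tgfbr2 remained. At 1 h leaving out the shallow libraries had the opposite effect and raised the calls from 3 to 6, with Igf1r (adjusted p = 0.00368), Met (0.0135) and Tgfbr1 (0.0242) added. Leaving out library b of the 1 h cytosol alone also gave 6. Met had 0.586 RPKM and 0 at 0.5 h and 1.16 RPKM and 0 at 1 h, and Tgfbr1 was listed at 0 in 9 of the 10 WT cytosol libraries. At 2 and 4 h no receptor was called in the WT cytosol by limma, beside 14.7% and 7.64% of all genes, with 1 and 0 receptors at an unadjusted p below 0.05 and 0 and 1 called by limma voom (Met at 4 h, adjusted p = 0.043). Fgfr1 at 2 h (log2 0.96, adjusted p = 0.067) was called by limma with a pseudocount of 0.1 (adjusted p = 0.019) and without the shallow libraries (0.0435). The fit with the library set as a block called it too (adjusted p = 0.0287). No sets were found in the WT cytosol, so that fit did not pair these libraries. It left the log2 change at 0.96 and altered only the spread shared with the other groups.

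A rise in the cytosol was also seen in the libraries labelled ATF4-/-. There limma called 3 receptors at 0.5 h (background 13.3%) and 2 at 1 h (background 9.48%), all higher. With the library set as a block it called 4 and 3, adding Tgfbr1 at 0.5 h (adjusted p = 0.0374) and Axl at 1 h (adjusted p = 0.042), and limma voom called 4 and 3 as well. Tgfbr2 went from 0.768 and 0.757 RPKM to 3.37 and 2.87 RPKM at 0.5 h (log2 1.22, adjusted p = 0.00496) and to 3.34 and 2.98 RPKM at 1 h (log2 1.24, adjusted p = 0.00561). Fgfr1 went from 0.495 and 0.423 RPKM to 4.18 and 2.22 RPKM (log2 1.49, adjusted p = 0.00384) and to 2.79 and 2.13 RPKM (log2 1.24, adjusted p = 0.0211). Axl went from 5.62 and 4.25 RPKM to 32.8 and 12.9 RPKM at 0.5 h (log2 1.88, adjusted p = 0.013). Library a was the higher treated library each time. Without library a of 0.5 h none of the 3 calls at that time remained (adjusted p 0.0593 to 0.271), and that of Axl was also lost without library b of 0 h (0.118). At 1 h the Fgfr1 call was lost without any of the 4 libraries (adjusted p 0.0612 to 0.163), and that of Tgfbr2 without library a of 1 h (0.061) or b of 0 h (0.05). Called genes of all kinds split into 1413 higher and 47 lower at 0.5 h, 960 and 80 at 1 h and 685 and 67 at 2 h, and after rescaling into 810 and 201, 660 and 211, and 480 and 179. At 2 and 4 h limma called no receptor (background 6.86% and 7.68%), with 2 and 1 at an unadjusted p below 0.05, and limma voom called none either.

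The S51A cytosol showed 1 called receptor in 36 tests. Fgfr1 had 1.43 and 1.73 RPKM untreated, 2.33 and 5.58 RPKM at 0.5 h, 2.12 and 1.76 RPKM at 1 h, 3.38 and 9.28 RPKM at 2 h and 2.47 and 2.59 RPKM at 4 h. It was called at 2 h (log2 1.38, SE 0.36, adjusted p = 0.0317), a call lost without library b of that time (adjusted p = 1) and without library a (0.306) or b (0.0758) of 0 h. The same library was high for other receptors, with 2.94 RPKM against 0.291 RPKM in library a for Pdgfra, 7.5 against 1.6 RPKM for Egfr and 8.95 against 1.36 RPKM for Igf2r. The shares of all genes called were 0%, 0.128%, 1.99% and 1.75% at 0.5, 1, 2 and 4 h, and 1, 0, 3 and 0 receptors had an unadjusted p below 0.05. Limma voom called Fgfr1 at 2 h and no receptor at the other times. Genes called at 1 h split into 8 higher and 6 lower, and into 3 and 6 after rescaling. Genes called at 4 h split into 78 higher and 114 lower, and into 101 and 94 after rescaling.

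The authors' fraction on the ER puts both compartments into 1 ratio. In the deposited WT values it went from 0.98 to 0.456 at 0.5 h for Pdgfra, from 0.989 to 0.569 for Igf2r, from 0.952 to 0.568 for Fgfr1 and from 0.981 to 0.617 for Axl. For Igf1r it went from 0.978 to 0.628, and for Tgfbr2 from 0.955 to 0.629. The 0.456 of Pdgfra is the lowest of the receptors' footprint fractions. All of these 0.5 h fractions contain the shallow cytosol library b, which was the higher cytosol library for each of these receptors. The size of these falls thus depends in part on that library, and fractions without it were not computed. The pooled fraction of mRNA on the ER was lower at 0.5 h as well, with 0.897 and 0.464 for Axl at 0 and 0.5 h, 0.905 and 0.569 for Tgfbr2, 0.97 and 0.659 for Igf2r, 0.909 and 0.587 for Igf1r and 0.863 and 0.618 for Fgfr1. At 4 h the WT footprint fractions of the 8 receptors with a value were back at 0.874 to 0.982. In S51A the fractions at 0.5 h were 0.738 for Tgfbr2 and 0.797 to 0.938 for the other receptors, and the lowest values for most receptors came at 2 h (0.776 to 0.857), the time of the high cytosol library b. In the libraries labelled ATF4-/- Fgfr1 had the lowest value at 0.5 h, 0.613, followed by Tgfbr1 with 0.702 and Tgfbr2 with 0.748. These ratios are pooled values with no spread, and the weight that the authors gave to each fraction enters them. A library listed at 0 is left out of the pooled level rather than averaged in, which raises the share of that fraction. The WT fractions of Met at 0.5 and 1 h, for example, rest on cytosol library a alone.

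**Figure D4:**
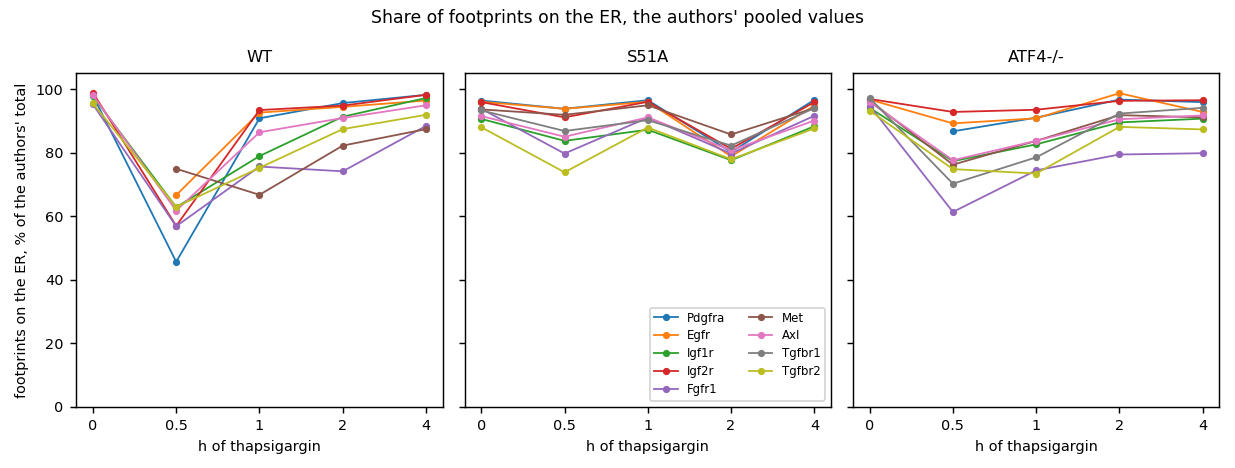
Share of each receptor's footprints on the ER, as a percentage of the authors' pooled total, against hours of thapsigargin in WT, S51A and the libraries labelled ATF4-/-; points are missing where a cytosol value is listed at 0. In WT most lines have their lowest point at 0.5 h, deepest for Pdgfra, while Met is lowest at 1 h, where its cytosol value comes from library a alone. The WT points at 0.5 h other than that of Met contain the shallow cytosol library b. In S51A most are lowest at 2 h, and in the libraries labelled ATF4-/- Fgfr1 dips furthest.

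The movement between fractions was tested as the ER change less the cytosol change at 1 and 4 h. In WT at 1 h 5 of the 9 receptors were called, all with a shift away from the ER, beside 11.6% of all genes called in either direction. All genes called split into 187 higher and 1086 lower under the authors' scaling, and into 245 and 852 after rescaling. Rescaling left 4 receptors called, without Tgfbr1 (adjusted p = 0.0564). Tgfbr2 shifted by -2.42 (log2, SE 0.43, adjusted p = 0.000241), Axl by -2.80 (SE 0.73, adjusted p = 0.0109) and Fgfr1 by -1.90 (SE 0.50, adjusted p = 0.0113). Met (-1.95, adjusted p = 0.00573) and Tgfbr1 (-1.36, adjusted p = 0.0364) were listed at 0 in the untreated cytosol, so that the size of their shift depends on the pseudocount. The Tgfbr2 call remained under every alternative and left-out library, and without library a of the 1 h cytosol Fgfr1 (adjusted p = 0.0504), Met (0.0513) and Tgfbr1 (0.228) were not called. Axl was not called without library a of the untreated ER (0.0519) or cytosol (0.0651), and Met not without library b of the 1 h ER (0.0803). At 4 h limma called no WT receptor (background 0.109%, 2 with an unadjusted p below 0.05, limma voom 0), and the genes called split into 3 higher and 9 lower, or 3 and 38 after rescaling. In the libraries labelled ATF4-/- Tgfbr2 was called at 1 h (log2 -1.48, SE 0.43, adjusted p = 0.0487, background 2.94%). That call was lost without any of the 8 libraries compared and after rescaling (log2 -1.09, adjusted p = 0.438). All genes called there were lower, 323 under the authors' scaling and 68 after rescaling. No receptor was called in these libraries at 4 h (background 0.0729%, 2 with an unadjusted p below 0.05). In S51A none was called at 1 or 4 h (background 0% at both, 0 with an unadjusted p below 0.05), and limma voom called none in S51A or at 4 h in the libraries labelled ATF4-/-.

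The mRNA of the receptors was measured with far fewer reads. In the WT ER fraction Axl had 73 and 38 reads untreated, 51 and 25 at 0.5 h, 50 and 27 at 1 h, 37 and 39 at 2 h and 39 and 40 at 4 h, and no other receptor had more than 36 reads in a library. Axl mRNA levels were 98.2 and 85.2 RPKM untreated, 53.0 and 34.9 RPKM at 0.5 h, 57.7 and 43.5 RPKM at 1 h, 56.5 and 67.0 RPKM at 2 h and 71.1 and 95.1 RPKM at 4 h. The 0.5 h libraries lay below the untreated ones (log2 -1.07, SE 0.47, unadjusted p = 0.038, adjusted p = 0.501). None of the 36 mRNA tests of the receptors was called by limma or limma voom, beside 0.0205%, 0.0205%, 0.0685% and 0.116% of the 14607 genes tested at 0.5, 1, 2 and 4 h, and 1 had an unadjusted p below 0.05. The change of ER footprints less that of ER mRNA was called for none of the receptors at 1 h (background 0.0992%) or 4 h (background 0.0198%) by limma or limma voom, with 0 at an unadjusted p below 0.05. For Tgfbr2 these differences were -0.26 (SE 0.70) at 1 h and -0.49 (SE 0.70) at 4 h, and for Met -1.29 (SE 1.08) and -1.40 (SE 1.08). With errors of this size, a change of translation apart from mRNA was not detectable at this depth.

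The authors' pooled mRNA totals, which carry no spread, give the levels in both fractions together. In WT Tgfbr2 mRNA was 18.3, 17.5, 13.2, 11.8 and 10.2 RPKM from 0 to 4 h. Tgfbr1 mRNA was 30.4, 21.8, 12.5, 34.4 and 45.5 RPKM at the same times, while its pooled footprint total was 6.77, 1.97, 4.39, 3.73 and 5.04 RPKM. Axl mRNA was 102, 94.6, 63.9, 72.4 and 90.8 RPKM, and Pdgfra mRNA was 1.79 RPKM untreated and 7.15 to 14.1 RPKM after thapsigargin. The untreated Pdgfra value and the Tgfbr1 mRNA value of 12.5 RPKM have no fraction on the ER listed. No change of Pdgfra mRNA was called in the WT ER, so its pooled values do not establish a rise. In S51A Tgfbr2 mRNA was between 42.6 and 63.3 RPKM except for 171 RPKM at 2 h. Single mRNA libraries of S51A and of ATF4-/- were not resolved, so no test was made on them.

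Genes of the same pathways were taken from 5 lists, of which 15 of 20 ligands, 16 of 17 binding proteins and co-receptors, 20 of 26 other receptors, 28 of 29 adaptors and kinases and 15 of 16 genes of maturation and turnover were tested. In the WT ER at 0.5 h 1 ligand was higher and 2 were lower, 4 binding proteins and co-receptors were lower, 7 other receptors were lower, 1 adaptor was higher and 7 were lower, and 6 genes of maturation and turnover were lower. The medians of these lists were -0.47, -1.02, -0.81, -0.37 and -0.56, against -0.23 for all genes, of which 25.4% were called, so that the called shares of the ligands, binding proteins and adaptors lay near that of all genes. Tgfb1, which encodes a ligand of Tgfbr2, fell by 1.61 (adjusted p = 0.00345), and Ereg, which encodes the Egfr ligand epiregulin, fell by 1.51. Fgf7, a ligand of the FGFR2 splice form of epithelia, rose by 1.21. Among binding proteins Igfbp4, which holds IGFs, fell by 2.2 and the TGF-β co-receptor Tgfbr3 by 1.79. Bmpr1a, a receptor for bone morphogenetic proteins, fell by 1.92, Pdgfrb, the partner of Pdgfra in PDGF binding, by 1.73 and Ptk7 by 1.68. Smad2, which Tgfbr1 phosphorylates, fell by 1.5 and Mapk3, which encodes ERK1, by 1.35, while Smad7, an inhibitor of the TGF-β receptor, rose by 1.74 (adjusted p = 0.000206). The sheddases Adam10 and Adam17, which cut receptors and ligands from the cell surface, fell by 1.86 and 1.16, and Lrig1, a brake on Egfr, by 1.09.

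At the later times the share of all genes called in the WT ER was 19.5% (1 h), 12.3% (2 h) and 9.24% (4 h). At 1 h 1 ligand, 1 binding protein, 5 other receptors and 4 genes of maturation were lower, and 1 adaptor was higher and 10 were lower. At 4 h the ligand Tgfb2 was higher by 2.32 (adjusted p = 0.002), Furin, a convertase that trims proreceptors such as those of Igf1r and Met, was lower by a log2 value of -2.25, and Cblb, a ubiquitin ligase of receptors, was higher by 0.87. In the S51A ER 0 genes of the 5 lists were called at 0.5 and 1 h, and at 4 h Tgfb2 was the gene called (log2 2.00, adjusted p = 0.0192). In the ER labelled ATF4-/- at 0.5 h (14% of all genes called) 3 other receptors, 11 adaptors and 2 genes of maturation were lower, and no ligand or binding protein was called.

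In the WT cytosol at 0.5 h, where 29.4% of all genes were called and library b is the shallow one that carried 4 of the 7 receptor calls, 12 of 16 binding proteins and co-receptors and 16 of 20 other receptors were higher and none lower, 6 ligands were higher and 1 lower, 6 genes of maturation were higher, and 2 adaptors were higher and 4 lower. The medians were 2.23 for binding proteins and co-receptors, 1.69 for other receptors, 0.95 for ligands, 0.46 for maturation and -0.17 for adaptors, against 0.04 for all genes. With genes listed at 0 set to the 3-read floor the first 3 medians were 2.03, 1.61 and 0.21. Nrp1, a co-receptor for VEGF and semaphorins, rose by 4.30, the syndecans Sdc4 and Sdc2, heparan sulfate carriers that help FGFs bind, by 3.94 and 3.88, Epha2 by 3.76 and the collagen receptor Ddr2 by 3.27. Ereg and Hbegf, ligands of Egfr made as membrane proteins, rose by 3.69 and 3.21. In the cytosol labelled ATF4-/- at 0.5 h (13.3% of all genes called) 5 ligands, 6 binding proteins, 1 other receptor, 1 adaptor and 2 genes of maturation were higher and none lower.

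Some ligands and binding proteins differed between the untreated genotypes, in comparisons that called 19.4% (S51A) and 24.9% (ATF4-/-) of all genes. In the S51A ER Igf1 was higher than in WT by a log2 value of 5.33 (49.0 RPKM against 0.275 RPKM in WT), Igfbp2 by 7.50 and Eng, a TGF-β co-receptor, by 3.36. Ereg was lower there by a log2 value of -5.20 (3.46 RPKM against 160 RPKM in WT) and Igfbp4 by -3.66. In the ER labelled ATF4-/- Ereg was lower by -3.24, Pdgfd by -3.11 and Igfbp4 by -2.80, while Igfbp6 was higher by 4.16. Of the lists 3 ligands were higher and 3 lower in S51A, and 0 and 3 in the libraries labelled ATF4-/-. Among other receptors 2 were higher and 1 lower in S51A, and 4 were lower in the libraries labelled ATF4-/-, among them Ror2 (-2.48) and Lrp1 (-2.59). In the libraries labelled ATF4-/- the called shares of the 15 ligands and the 20 other receptors lay below that of all genes, as did that of the other receptors in S51A.

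Genes with a like pattern were sought among 6990 genes by the Pearson correlation of log2 pooled footprint totals over the 15 conditions, as a description. The 15 conditions share their 3 genotypes and the scaling of their libraries. Pdgfra was most like Amotl1 (r = 0.9855) and Tmem176a (0.9807), Egfr most like Atp6v0d1 (0.9723) and Ttc3 (0.9677), and Igf2r most like Gpc4 (0.9823) and Mmp14 (0.9808). Igf1r was most like Tln1 (0.9615) and Adm (0.9591), Fgfr1 most like Crim1 (0.9648) and B3galnt1 (0.9588), and Axl most like Cdh13 (0.9544) and Gm7040 (0.9269). Tgfbr2 was most like Gm2a (0.9518) and Zfand6 (0.9496). Met (Cds2, 0.8992, and Slc29a1, 0.8708) and Tgfbr1 (Slc44a1, 0.8691, and Tmx4, 0.8509) had lower best values than the other receptors. By ranks the first gene was the same for Egfr and Axl and another for the other 7 receptors.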

How the data were processed

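Ribosome footprints and mRNA of the ER and cytosol fractions were analysed for 9 receptors in 3 genotypes at 5 times. The authors deposited pooled totals, which were read from the values as RPKM because no header names the unit, and, per the file headers, a fraction on the ER, a ratio of the ER level to the total. Per the submitters' processing notes, cutadapt 1.6 and Bowtie 1.1.1 were used. Settings, genome build and read counting stand as not given in the sources used here. No column of other samples was used.

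A total times its ER share and the coding length equals a mean of whole reads times the worth of 1 read in each library. These whole numbers were solved per gene (relative tolerance 7e-12, numpy 2.4.6, pandas 2.3.3, Python 3.11.15). Coding lengths came from the GENCODE vM21 annotation of GRCm38 (20224 genes) or from the values (765 genes, Axl among them). Of the footprint values 381691 of 383969 were solved (99.4%), and of the WT mRNA values 124783 of 125015 (99.8%). With wrong lengths 8 of 13426 (0.0596%) and 4 of 3630 (0.11%) were solved. A WT footprint library with fewer than 4 reads on a gene is listed at 0. Summed levels of a group's libraries differed by a median factor of 1.027 (footprints) or 1.046 (mRNA). Recovery and tests were tested on simulated data. Recovered libraries carry no replicate number. Replicates differed beyond counting error (chi-square per degree of freedom at least 2.035 for footprints and 1.337 for mRNA), so none was counted as deposited a second time.

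Tests used limma 3.58.1 in R 4.3.3 with trend on log2(RPKM + 1). Footprint genes needed a level of 1 in 10 libraries, and WT mRNA genes in 4. Trimmed-mean rescaling, limma voom, other pseudocounts, no filter and left-out libraries were alternatives. All 9 receptors were named, of the lists at most the 3 genes of largest called change, and the 2 genes most like each receptor. Receptors and lists were chosen with earlier results of these data known. A floor of 3 reads per library covers counting error only.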

Additional observations from a re-analysis of the deposited data

Results flagged for a closer look

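The following 5 results were picked out because every library of 1 genotype moved one way from the untreated mean and every library of another genotype the other way. The differences were not tested. In the ER at 2 h the mean log2 change of Tgfbr1 was -0.7279 in WT and 0.2472 in S51A, a difference of 0.9751. In the cytosol at 1 h Egfr changed by -0.5535 in S51A and 0.2668 in the libraries labelled ATF4-/-, a difference of 0.8203. Igf2r changed there by -0.401 and 0.2024, a difference of 0.6034, and Met by -0.2299 and 0.583, a difference of 0.8128. In the cytosol labelled ATF4-/- Egfr had 0.194 and 0.0364 RPKM untreated and 0.38 and 0.298 RPKM at 1 h. Igf2r had 0.234 and 0.106 RPKM and then 0.462 and 0.236 RPKM. These levels lie below the pseudocount of 1 and rest on few reads, so the direction of these changes is uncertain. In the cytosol at 4 h Tgfbr2 changed by -0.2901 in WT and 0.4011 in the libraries labelled ATF4-/-, a difference of 0.6912. None of these single changes was called by limma under the main settings, but that of Tgfbr1 in WT was called after rescaling (adjusted p = 0.0449) and with a pseudocount of 5 (adjusted p = 0.00996).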

How the results depend on the processing

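Over all receptors, genotypes and times, 13 of 108 ER changes, 16 of 108 cytosol changes, 6 of 54 shifts, 26 of 27 differences between ER and cytosol, 8 of 18 untreated genotype differences and 0 of 36 differences of response were called. With a pseudocount of 0.1 3 ER changes and 3 untreated differences were called. With a pseudocount of 5 9 cytosol changes and 1 difference of response were called. Without the shallow libraries 1 difference of response was called. With levels scaled to the reads of the library itself, chosen after seeing the data, 8 ER changes were called. The other alternatives, the library set as a block (also chosen after seeing the data) among them, moved each of these counts by at most 1.5 times. Leaving out 1 library at a time (70 fits, the lone library assumed to vary like the other groups) gave 6 to 13 ER calls, 12 to 19 cytosol calls, 3 to 7 shifts, 26 ER against cytosol, 4 to 8 untreated and 0 to 1 differences of response. ER calls fell to 6 and 8 and untreated calls to 4 without WT ER library a or b of 0 h, shifts to 3 without WT cytosol library a of 1 h, and untreated calls to 5 without library b of the untreated ER labelled ATF4-/-. Without S51A ER library b of 4 h 1 difference of response was called. Calls that remained in all fits were 2 of 13 in the ER, 4 of 16 in the cytosol, 1 of 6 shifts, 25 of 26 between fractions and 3 of 8 untreated. mRNA and translational efficiency stayed at 0 calls throughout. No called receptor value reversed. No paired analysis was possible because the recovered libraries carry no replicate number. The library sets were read from the data and are not the study's numbers. As a block they added 4 receptor calls and ended that of the Tgfbr2 shift at 1 h in ATF4-/- (adjusted p = 0.0501). Among the added calls was that of Fgfr1 in the WT cytosol at 2 h, where no sets were found. No WT mRNA library lay under 20000 reads, so leaving out shallow mRNA libraries changed nothing. Depth limits Met and Tgfbr1 (6 reads in the ER library b of 1 h) and all receptor mRNAs but Axl.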
